A study of Mus musculus with 4 samples.

Results

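A group of 7 genes for leukocyte-type cell surface proteins, several of them best known from blood cells, was followed in the mouse trachea and stomach. They were Cd300lf, Siglecf, Ms4a15, Vsig2, Ptprc, Cd24a and Cd79b. These 7 genes, of 48709 lines in the table, were picked partly on measured values, since Cd300lf, Ms4a15, Vsig2 and Cd79b had been chosen for large ratios of EGFP to Tomato in the trachea. All 7 were found by gene name and are described in each of the 4 libraries. The name of the group holds only in part: Siglecf was listed at 0 in EGFP-positive tracheal cells, and Vsig2, which is no blood cell marker, was higher in Tomato-positive gastric cells than in EGFP-positive tracheal cells.

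All cells came from adult Tas2r143-CreERT2;Rosa26flox-mT-stop-flox-mG mice on a C57BL/6 background, so the Tomato-positive cells carried the same alleles and had the same treatment as the EGFP-positive cells. In these mice a bacterial artificial chromosome places CreERT2, a recombinase switched on by tamoxifen, under the promoter of the bitter taste receptor gene Tas2r143. Recombined cells change from the red protein Tomato to EGFP. Tamoxifen was given for 5 days, and cells were sorted 5 days after the last dose. The EGFP sort took live cells with EGFP and set no epithelial gate, whereas the Tomato sort took live cells with Tomato and the epithelial surface protein EpCAM but without EGFP. Each library pooled cells of 3 mice of 1 transgenic line, and each sort of each tissue gave 1 library. No difference below therefore has a replicate check, and no p-value is given.

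Values are normalized counts, that is read counts per gene scaled per library and rounded by the authors. They summed to between 9979296 and 15433150 per library, with 11522 to 16174 genes above 0. The worth of 1 read was estimated at 1.61 normalized counts in the EGFP library of the trachea and at 0.786 to 0.816 in the others, which gives about 6200000 reads in the former and 17300000 to 18900000 in the latter. A count of 0 allows up to 3 reads, or 4.83 normalized counts in the EGFP library of the trachea and 2.36 to 2.45 in the others. The EGFP library of the trachea was thus the shallowest, so a 0 is given below as listed. The transferrin receptor gene Tfrc, which most cells use, was also listed at 0 there. It was at 2 in Tomato cells of the trachea, under the floor, so its 0 does not show a loss from low depth. Of 25 commonly used genes, Tfrc was the only 1 at 0 in the EGFP library of the trachea, and 24 were at 50 or more. Calls and log2 ratios against a 0 are made on values plus 1, so their size depends on that pseudocount and is not read as a fold. Title and tissue field of the sample labels name opposite tissues, and the libraries are named here by the title, which the table's column names carry too. By this naming the club cell gene Cyp2f2 was at 337775 in Tomato cells of the trachea and at 69 in those of the stomach, while Pgc, a gene of gastric chief cells, stood at 2 and 992416. Of the tracheal epithelial genes, 6 in all with Scgb1a1, Krt5 and Bpifa1 among them, the sum was 59083 and 1298468 in EGFP and Tomato cells of the trachea and 2 and 86 in those of the stomach. The 6 gastric genes, which include Gkn1 and Gif, summed to 769 and 32 in the trachea and to 107590 and 1593913 in the stomach. In the trachea Atp4a alone made up 749 and 19 of these sums. Both lists were thus lower in EGFP than in Tomato cells of their own tissue.

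Several of these proteins turn signals from outside the cell into phosphorylation on its inner face. CD300LF, a receptor for lipids and the entry receptor of murine norovirus, and SIGLECF, a sialic acid-binding lectin of eosinophils and alveolar macrophages, carry inhibitory tyrosine motifs that recruit phosphatases such as PTPN6. CD79B, the Ig-beta chain of the B cell receptor, carries an activating motif and works as a pair with CD79A, and PTPRC, or CD45, is the tyrosine phosphatase that controls Src-family kinases in all nucleated blood cells. CD24 is a small glycoprotein on a lipid anchor that is found on B cell precursors and on many epithelia. VSIG2 is an immunoglobulin-type adhesion protein, and MS4A15 belongs to the membrane-spanning family of the B cell protein CD20. Tuft cells, the chemosensory cells of airway and gut epithelium, are known to express some of these genes, among them Cd24a, Siglecf and Cd300lf in the intestine.

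The sequence in front of the start is shown for the members that the promoter table used here held, so that genes high in EGFP cells can be read side by side. The table, drawn from RefSeq, matched 4 of the 7 members, and the 250 bases before the start, 5′ to 3′ on the gene's strand in GRCm38.p6, are given for Cd300lf, Siglecf, Ms4a15 and the first of 2 listed starts of Ptprc. Capitals mark GGAAGT or its reverse complement ACTTCC, the letters of an ETS-type site, a motif picked after the sequences were seen.
Cd300lf, chr11:115133993-115134242 (minus strand): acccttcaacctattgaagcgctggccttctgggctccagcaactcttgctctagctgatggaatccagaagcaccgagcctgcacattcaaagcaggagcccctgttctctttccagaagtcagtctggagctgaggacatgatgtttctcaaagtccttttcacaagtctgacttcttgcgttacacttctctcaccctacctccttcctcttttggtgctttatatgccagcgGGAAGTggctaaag
Siglecf, chr7:43351091-43351340 (plus strand): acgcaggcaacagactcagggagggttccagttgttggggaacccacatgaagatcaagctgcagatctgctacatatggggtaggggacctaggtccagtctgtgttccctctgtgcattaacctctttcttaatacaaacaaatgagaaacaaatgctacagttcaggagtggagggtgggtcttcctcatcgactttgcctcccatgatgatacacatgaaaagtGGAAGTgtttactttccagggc
Ms4a15, chr19:10993251-10993500 (minus strand): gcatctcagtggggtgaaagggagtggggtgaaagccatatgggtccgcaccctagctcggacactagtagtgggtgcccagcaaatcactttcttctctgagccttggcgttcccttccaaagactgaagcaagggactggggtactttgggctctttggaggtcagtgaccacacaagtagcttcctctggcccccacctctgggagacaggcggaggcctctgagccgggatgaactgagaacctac
Ptprc, chr1:138175306-138175555 (minus strand): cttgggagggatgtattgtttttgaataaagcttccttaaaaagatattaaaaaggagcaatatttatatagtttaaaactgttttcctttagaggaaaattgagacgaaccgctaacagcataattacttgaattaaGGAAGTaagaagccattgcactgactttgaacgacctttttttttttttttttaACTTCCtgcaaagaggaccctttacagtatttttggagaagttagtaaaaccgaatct

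Cd300lf held 1 such match, which began 14 bases before the start, and Siglecf held 1, which began 22 bases before it. Ptprc held 2, at 112 and 58 bases, and Ms4a15 held 0. On both strands the same letters stood in 6485 of 32851 promoter windows of this length, or 19.7%, so a match is common. The octamer ATGCAAAT, or ATTTGCAT on the other strand, stood in 526 windows, or 1.6%, and in 0 of those shown. A match describes letters only.

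In the trachea, EGFP-positive cells held high levels of 3 genes that were listed at 0 in Tomato-positive cells of the same tissue: Cd300lf, Ms4a15 and Vsig2. Cd79b and Ptprc were at 1386 and 338 in the EGFP cells and at 1 each in the Tomato cells. Cd24a was high in both sorts and 3.273-fold higher in EGFP cells, and Siglecf was listed at 0 in both. A gene was called higher or lower from 4-fold on, on log2 of the ratio of values plus 1, where the higher library held at least 50 normalized counts. By this rule 5 of the 6 measured members were called higher and 0 lower, beside 25.2% higher and 32.4% lower of the 10523 genes measured. Since 4 members had been chosen on this contrast, nothing is read from that count.

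In the stomach 4 of 6 measured members were called higher in EGFP-positive cells and 0 lower, beside 14.8% higher and 22.4% lower of 11094 genes measured. The 4 were Cd79b, Siglecf, Cd24a and Cd300lf, while Vsig2 and Ptprc did not reach 4-fold and Ms4a15 lay under the minimum of 50. The median log2 ratio of the 6 measured members was 3.29, beside -0.15 over all genes measured. The members had been chosen with earlier results of these data known, so this count and median are a description only. Between the EGFP libraries 1 of 7 members, Ms4a15, was called higher in the trachea and 2, Siglecf and Cd24a, were called lower, beside 19.8% higher and 28.3% lower of 10337 genes. The median of the 7 was -1.63 there, beside -0.16 over all genes. In bulk libraries, fewer cells of a type and less RNA per cell cannot be told apart.

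**Figure D1:**
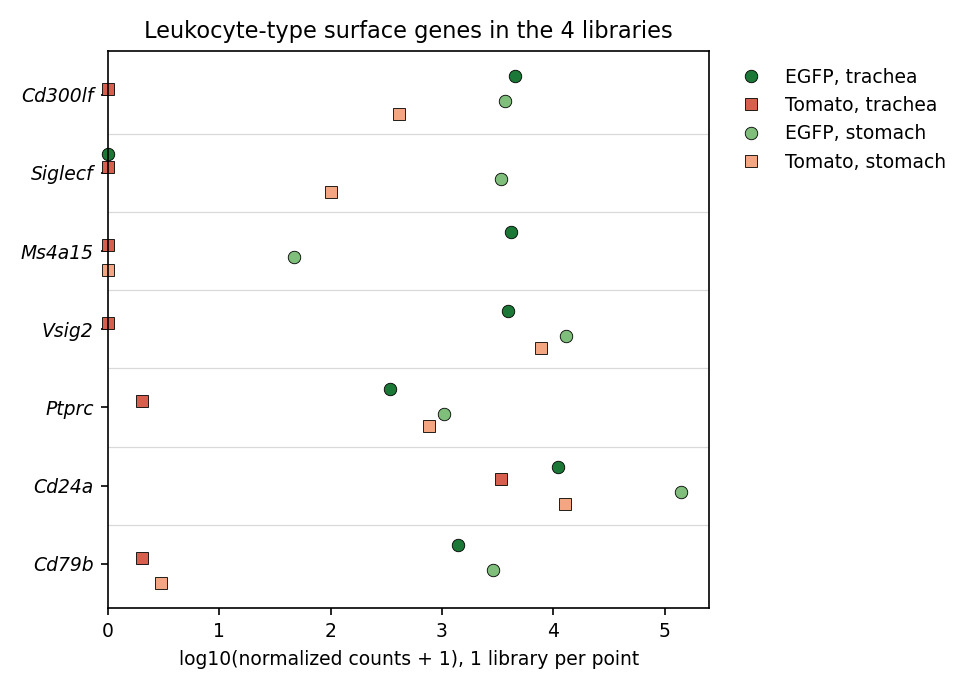
Levels of the 7 genes as log10(normalized counts + 1), with 1 point for each of the 4 libraries (circles, EGFP-positive cells; squares, Tomato-positive cells; dark, trachea; light, stomach) and no error bars because each group is 1 library. The squares of the trachea sit at 0 or 1 normalized count for all genes but Cd24a, whereas those of the stomach reach 7826 for Vsig2 and 12844 for Cd24a.

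Cd300lf was the member with the most even level in the EGFP-positive cells of both tissues. It was at 4562 normalized counts in EGFP cells of the trachea, 0 in Tomato cells of the trachea, 3646 in EGFP cells of the stomach and 412 in Tomato cells of the stomach. Both EGFP libraries lay above both Tomato libraries. The EGFP to Tomato ratio in the stomach was 8.85 (95% exact binomial interval on the estimated reads, 8.07 to 9.719), and the level in EGFP cells was 1.251 times (1.194 to 1.311) as high in the trachea as in the stomach. These intervals, here and below, cover counting error only, since reads of amplified cDNA are not independent molecules. Of 790 genes within 2-fold of Cd300lf in the EGFP library of the trachea, 28 (3.54%) were listed at 0 in the Tomato library, and the median of the 790 there was 2385. Cd300lf had been chosen for its large tracheal ratio, so nothing about it is read from this share.

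Siglecf was detected in the stomach only, where it was higher in EGFP cells. It was listed at 0 in both libraries of the trachea, at 3384 in EGFP cells of the stomach and at 99 in Tomato cells of the stomach, a ratio of 34.18 (28.6 to 41.4). Of 1004 genes within 2-fold of its level in EGFP cells of the stomach, 70 (6.97%) were listed at 0 in EGFP cells of the trachea, where their median was 1885.

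Ms4a15 had the opposite tissue pattern. It was at 4190 in EGFP cells of the trachea, at 46 in EGFP cells of the stomach and listed at 0 in both Tomato libraries. The trachea to stomach ratio of the EGFP libraries was 91.09 (69.8 to 119). The 46 normalized counts in the stomach correspond to about 59 reads, above the 3 reads that a count of 0 allows. Of 877 genes at a like level in EGFP cells of the trachea, 33 (3.76%) were listed at 0 in Tomato cells of the trachea. Since Ms4a15 had been chosen on this contrast, nothing about it is read from this share.

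Vsig2 was a gene of EGFP cells in the trachea but of both sorts in the stomach. Its levels were 3893 in EGFP and 0 in Tomato cells of the trachea, and 13107 in EGFP and 7826 in Tomato cells of the stomach. The ratio in the stomach was 1.675 (1.633 to 1.718), which exceeds counting error but not 4-fold, and EGFP cells of the stomach were 3.367-fold (3.226 to 3.515) above those of the trachea. The Tomato cells of the 2 tissues thus differed more than the EGFP cells did: of 336 genes within 2-fold of Vsig2 in Tomato cells of the stomach, 18 (5.36%) were listed at 0 in those of the trachea. Vsig2 had been chosen for its large tracheal ratio, which a 0 in Tomato cells gives, so nothing about it is read from this share.

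Ptprc, the pan-leukocyte phosphatase, had the lowest level per length of the members detected in the EGFP library of the trachea. It was at 338 in EGFP and 1 in Tomato cells of the trachea, a ratio of 338.0 that rests on about 210 reads against 1 and has an interval of 74.2 to 1.658e+04. In the stomach the levels were 1051 in EGFP and 768 in Tomato cells, a ratio of 1.368 (1.258 to 1.489). Ptprc RNA was therefore also present in the stomach sort that required EpCAM. At the level of Ptprc in the EGFP library of the trachea, 489 of 2980 genes (16.4%) were at or under the floor of 3 reads in the Tomato library, so such a gap was common among genes this low.

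Cd24a was the most abundant member in each library and the only one well above the floor in all 4. Its levels were 10988 in EGFP and 3357 in Tomato cells of the trachea, and 139497 in EGFP and 12844 in Tomato cells of the stomach. The EGFP to Tomato ratio was 3.273 (3.149 to 3.402) in the trachea and 10.86 (10.69 to 11.04) in the stomach, and EGFP cells of the stomach were 12.7-fold (12.39 to 13.01) above those of the trachea. When all libraries were scaled to the same total, the ratio of Cd24a in the trachea passed 4-fold and 6 members were called there. Of its 75-base stretches, 27 of 2460 (1.1%) also occur in the gene Gm6212, so reads that aligned to both genes would have been left out of the counts.

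Cd79b was high in both EGFP libraries and under the floor of 3 reads in both Tomato libraries. It was at 1386 in EGFP and 1 in Tomato cells of the trachea, and at 2855 in EGFP and 2 in Tomato cells of the stomach. The ratios were 1386.0 (306.7 to 6.776e+04) in the trachea and 1428.0 (483.9 to 1.445e+04) in the stomach, each resting on 1 or 2 reads in the Tomato library. Of genes within 2-fold of Cd79b, 176 of 2189 (8.04%) were at or under the floor in Tomato cells of the trachea and 42 of 1157 (3.63%) in Tomato cells of the stomach. Since Cd79b had been chosen for its tracheal ratio, nothing about it is read from the tracheal share. EGFP cells of the stomach were 2.06-fold (1.911 to 2.221) above those of the trachea.

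**Figure D2:**
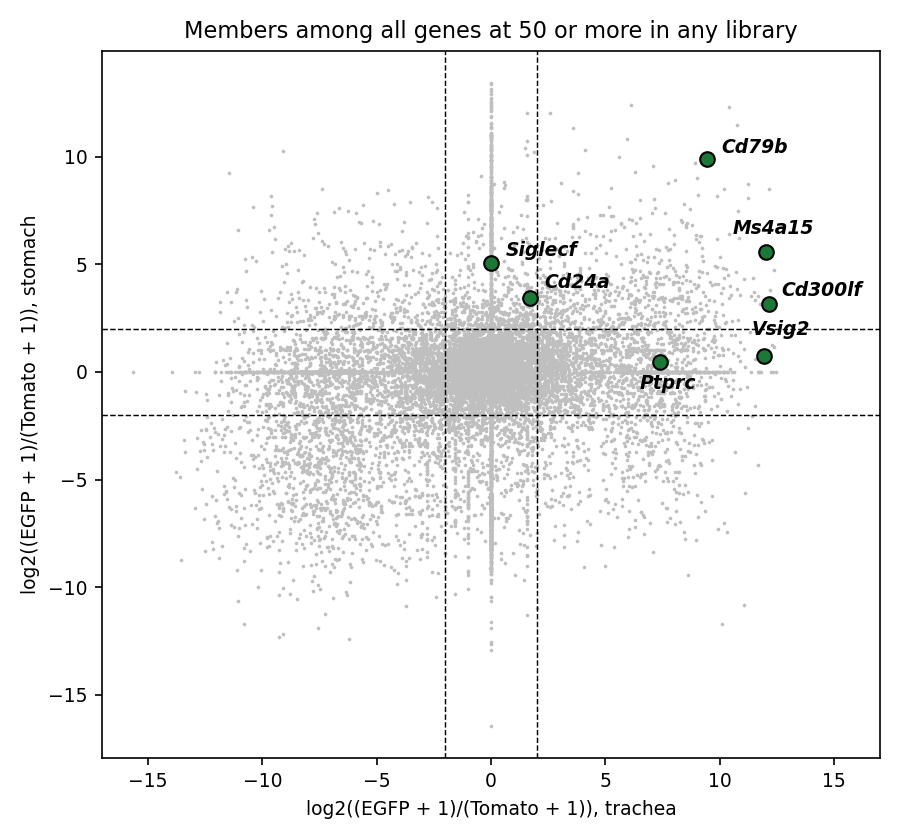
Each point is a gene with at least 50 normalized counts in any library, placed by log2((EGFP + 1)/(Tomato + 1)) in the trachea (x axis) and in the stomach (y axis), with the 7 genes in green and dashed lines at 4-fold. Cd79b lies at 9.44 and 9.89 and Cd300lf at 12.16 and 3.14, while Siglecf lies at 0 on the x axis and Ptprc and Vsig2 lie between the lines for the stomach.

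Levels of different genes were compared as normalized counts per kb of merged exon. In EGFP cells of the trachea Cd24a stood at 4259 per kb, followed by Ms4a15 at 2358, Vsig2 at 1967, Cd79b at 968.6, Cd300lf at 886 and Ptprc at 18.46. Cd24a ranked 102 and Ptprc 7311 among 11495 genes above 0. In EGFP cells of the stomach Cd24a stood at 5.407e+04 per kb, rank 18 of 15128, followed by Vsig2 at 6623, Cd79b at 1995, Siglecf at 1213, Cd300lf at 708.1, Ptprc at 57.39 and Ms4a15 at 25.89. In Tomato cells of the stomach Cd24a and Vsig2 stood at 4978 and 3955 per kb, ranks 104 and 146 of 16144, and every other member at 80.02 or less. With 1 library per group, whether neighbours in these orders differ beyond replicate spread cannot be said.

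The members lie apart in the genome, on 6 chromosomes in GRCm38. Cd300lf lies at chr11:115116214-115133992 and Cd79b at chr11:106311341-106314762, both on the minus strand. Siglecf lies at chr7:43351341-43359531, Ms4a15 at chr19:10978307-10993250, Vsig2 at chr9:37539255-37544205, Ptprc at chr1:138062861-138175708 and Cd24a at chr10:43578284-43584265. Counts were made over exons, from 4 merged exons of 2580 bases for Cd24a to 32 merged exons of 18313 bases for Ptprc, and no member's exons overlap those of another gene. Cd300lf shares 60 of 5360 stretches of 75 bases (1.12%) with its neighbour Cd300ld, and the other members apart from Cd24a share 0.

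The relatives of these genes were described family by family. Of the 11 other CD300 genes, 0 were called higher in either tissue, 2 of 2 measured were called lower in the trachea and 4 of 5 in the stomach, and their summed level was 0 in EGFP cells of the trachea. Cd300a was at 0 and 80 in EGFP and Tomato cells of the trachea and at 187 and 396 in those of the stomach, and Cd300c2, Cd300lb and Cd300ld were listed at 0 in 3 libraries and at 96, 92 and 52 in Tomato cells of the stomach. Cd300ld, the gene that shares sequence with Cd300lf, was thus at 0 wherever EGFP was sorted.

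Of the 8 other Siglec genes, 1 of 2 measured was called higher and 1 lower in the trachea, and 1 of 1 was called lower in the stomach. Mag, the myelin-associated glycoprotein, was at 158 in EGFP cells of the trachea and listed at 0 elsewhere. Siglech, a marker of plasmacytoid dendritic cells, was at 84 and 44 in the Tomato cells of trachea and stomach and at 0 in both EGFP libraries. The B cell lectin Cd22 was at 104 in Tomato cells of the stomach and at 1 or 0 elsewhere.

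Among the 19 other MS4A genes, 0 of 3 measured were called higher and 2 lower in the trachea, and 2 of 9 were called higher and 6 lower in the stomach. Ms4a8a was at 4188 in EGFP and 78 in Tomato cells of the stomach and listed at 0 in both libraries of the trachea. Ms4a7, a macrophage gene, was at 1252 in Tomato cells of the stomach, 37 in EGFP cells of the stomach, 137 in Tomato cells of the trachea and 0 in EGFP cells of the trachea. Tmem176b was at 4948 in EGFP and 15271 in Tomato cells of the trachea but at 22169 in EGFP and 3823 in Tomato cells of the stomach. Tmem176a had the same order, with 2786 and 13164 in the trachea and 8190 and 2179 in the stomach. Ms4a1, which encodes CD20, was listed at 0 in all 4 libraries.

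Of the 14 other adhesion genes related to Vsig2, 1 of 6 measured was called higher and 3 lower in the trachea, and 1 of 9 was called higher and 3 lower in the stomach. Vsig1, a gastric epithelial gene, was at 690 in EGFP and 11916 in Tomato cells of the stomach and listed at 0 in the trachea. F11r, the tight junction protein JAM-A, was at 2744 and 2640 in EGFP and Tomato cells of the trachea and at 6257 and 3671 in those of the stomach. Vsig10 was at 108 and 791 in the trachea and at 1626 and 798 in the stomach, and the virus receptor gene Cxadr was at 378 and 1773 in the trachea and at 471 and 1871 in the stomach.

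Cd79b was set beside the rest of the B cell receptor and its lineage genes. Its obligate partner Cd79a was listed at 0 in both libraries of the trachea and was at 791 in EGFP and 20 in Tomato cells of the stomach. Ms4a1, as above, was at 0 in every library. In the EGFP library of the trachea, the defining B cell markers Cd79a and Ms4a1 were thus both listed at 0, although the transcription factor gene Pax5 was at 280 there and at 0 in the other 3 libraries.

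Other genes of the B cell list were present in EGFP cells. Spib, a transcription factor of B cells, dendritic cells and M cells, was at 3104 and 20 in EGFP and Tomato cells of the trachea and at 8271 and 537 in those of the stomach. Blnk, an adaptor below the B cell receptor, was at 3278 and 1686 in the trachea and at 1625 and 225 in the stomach, and the coactivator gene Pou2af1 was at 445 in EGFP cells of the stomach and at 0 elsewhere. Of 17 genes in the list, 2 of 4 measured were called higher and 1 lower in the trachea, and 4 of 9 were called higher and 2 lower in the stomach. The list summed to 6709 in EGFP and 1942 in Tomato cells of the trachea and to 11490 and 1487 in those of the stomach, and 13, 14, 6 and 8 of its genes were listed at 0 in these libraries.

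Most measured genes of antibody-secreting cells were also higher in EGFP cells. The plasma cell list of 11 genes summed to 29535 in EGFP and 7189 in Tomato cells of the trachea and to 1410055 and 70893 in those of the stomach. Of its genes, 4 of 6 measured were called higher and 2 lower in the trachea, and 7 of 9 were called higher and 0 lower in the stomach. Jchain, which joins IgA and IgM chains, was at 5156 and 15 in the trachea and at 149752 and 8479 in the stomach, and the kappa constant gene Igkc was at 12790 and 948 and at 530119 and 28372. Igha was at 11389 and 3 in the trachea and at 669648 and 32337 in the stomach. Mzb1, which helps to assemble antibodies, was listed at 0 in both libraries of the trachea and was at 1848 and 59 in the stomach. The part of plasma cells or B cells in the levels of Cd79b was not tested.

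**Figure D3:**
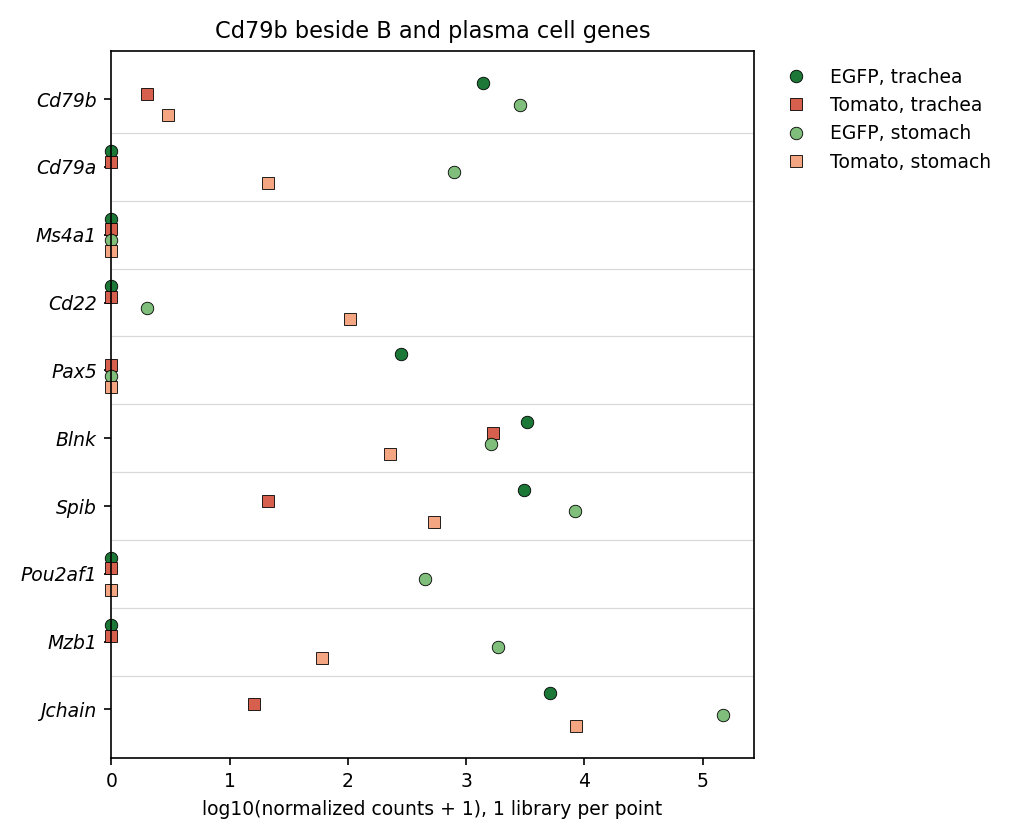
Levels of Cd79b and of 9 genes of B and plasma cells as log10(normalized counts + 1), 1 point per library and no error bars, with symbols for sort and tissue as in the legend. In the EGFP library of the trachea Cd79b is at 1386 while Cd79a and Ms4a1 are at 0, and in that of the stomach Cd79a is at 791 and Ms4a1 at 0.

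Most markers of all blood cells did not follow Ptprc in the trachea. Of 18 such genes, 1 of 9 measured was called higher in EGFP cells of the trachea and 7 lower, and 13 were listed at 0 there. The 1 was Ptprcap, at 89 and 0 in EGFP and Tomato cells of the trachea and 142 and 0 in those of the stomach. In the stomach 6 of 13 were called higher and 3 lower, and 2 were listed at 0 in EGFP cells. The list summed to 2242 in EGFP and 5473 in Tomato cells of the trachea and to 15748 and 4397 in those of the stomach.

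Rac2, a GTPase of blood cells, made up most of the sum in EGFP cells of the trachea, with 2096 against 655 in Tomato cells, and was at 11586 and 955 in the stomach. The tetraspanin gene Cd53 was at 2 and 80 in the trachea and at 1693 and 470 in the stomach. Coro1a, an actin regulator of leukocytes, was at 0 and 557 in the trachea and at 440 and 104 in the stomach, and the integrin gene Itgb2 was at 0 and 2286 and at 469 and 35. Leukocyte markers were therefore present in the Tomato libraries, whose sort required EpCAM, as well as in both EGFP libraries. In the EGFP library of the trachea 3 of the 18 genes were at 50 or more, with Rac2 and Ptprcap among them.

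Among single lineages, the myeloid list of 17 genes was lower in EGFP cells of both tissues. It summed to 857 in EGFP and 58304 in Tomato cells of the trachea and to 3208 and 32223 in those of the stomach, with 0 genes called higher and 12 of 13 measured called lower in the trachea and 12 of 14 in the stomach. The macrophage marker Csf1r was at 0 in both EGFP libraries and at 176 in the Tomato library of the trachea and 217 in that of the stomach. Lyz2 was at 470 and 35491 in EGFP and Tomato cells of the trachea and at 0 and 5413 in those of the stomach, Cd14 was at 325 and 4253 and at 0 and 1905, and the MHC class II chaperone Cd74 was at 5 and 6144 and at 1973 and 7105. Ctss was at 0 and 547 in the trachea and at 1150 and 2348 in the stomach. Lyz2 alone made up most of the sum in Tomato cells of the trachea, so that sum is not read as an amount of myeloid cells.

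Most eosinophil, T cell and mast cell genes were listed at 0 in EGFP cells, with Prg2, Cd28, Cd3g and Kit among the exceptions. Of 12 granulocyte genes, 11 were listed at 0 in each EGFP library, among them the eosinophil peroxidase gene Epx, which was at 0 in all 4. In Tomato cells of trachea and stomach 11 and 9 were at 0 too. The list summed to 121 and 15 in EGFP and Tomato cells of the trachea and to 405 and 134 in those of the stomach. The value of 121 and that of 405 were Prg2, the eosinophil major basic protein gene, which was at 0 and 78 in the Tomato libraries. The gene was called higher in the trachea and in the stomach, and Csf3r, at 55 in Tomato cells of the stomach, was called lower there.

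Of 18 T and NK cell genes, 17 were listed at 0 in EGFP cells of the trachea and 14 in those of the stomach. In Tomato cells 16 and 12 were at 0, so most were absent from both sorts. The list summed to 98 and 41 in EGFP and Tomato cells of the trachea and to 609 and 99 in those of the stomach. Cd3e was at 0 in all 4 libraries. The costimulatory receptor gene Cd28 was at 556 and 13 in EGFP and Tomato cells of the stomach, Icos at 50 and 3, and both were listed at 0 in the trachea. Cd3g was at 98 and 36 in the trachea and at 0 in the stomach, and Lck was at 77 in Tomato cells of the stomach and at 0 elsewhere. In all, 0 of 1 measured gene was called in the trachea, and 2 of 3 were called higher and 1 lower in the stomach.

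Of 10 mast cell and basophil genes, 1 of 3 measured was called higher and 2 lower in the trachea, and 0 of 7 were called higher and 6 lower in the stomach. The list summed to 784 and 509 in the trachea and to 323 and 6020 in the stomach. Kit, the stem cell factor receptor, was at 784 and 139 in EGFP and Tomato cells of the trachea and at 322 and 197 in those of the stomach. The mast cell genes Tpsb2, Cma1 and Cpa3 were at 1 or 0 in both EGFP libraries and at 1411, 1073 and 256 in Tomato cells of the stomach.

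Together the lists of B, plasma, T and NK, myeloid, granulocyte, mast and general leukocyte genes held 103 genes. In the trachea 9 of 37 measured (24.3%) were called higher in EGFP cells and 24 (64.9%) lower, and in the stomach 20 of 57 (35.1%) were called higher and 25 (43.9%) lower. Over all genes measured the shares were 25.2% higher and 32.4% lower in the trachea and 14.8% and 22.4% in the stomach, so the share called higher in the trachea lay near that of all genes. Of the 103 genes, 80 were listed at 0 in EGFP cells of the trachea, 61 in Tomato cells of the trachea, 53 in EGFP cells of the stomach and 34 in Tomato cells of the stomach. Of all 48709 lines, 11522, 13555, 15163 and 16174 were above 0 in these libraries in the same order, so most lines were at 0 too. Counts of list genes at 0, here and above, are therefore not read as a trait of these genes. The part of leukocytes in the levels of the 7 genes was not tested. The EGFP library of the trachea had the most leukocyte genes at 0, and it was also the shallowest.

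**Figure D4:**
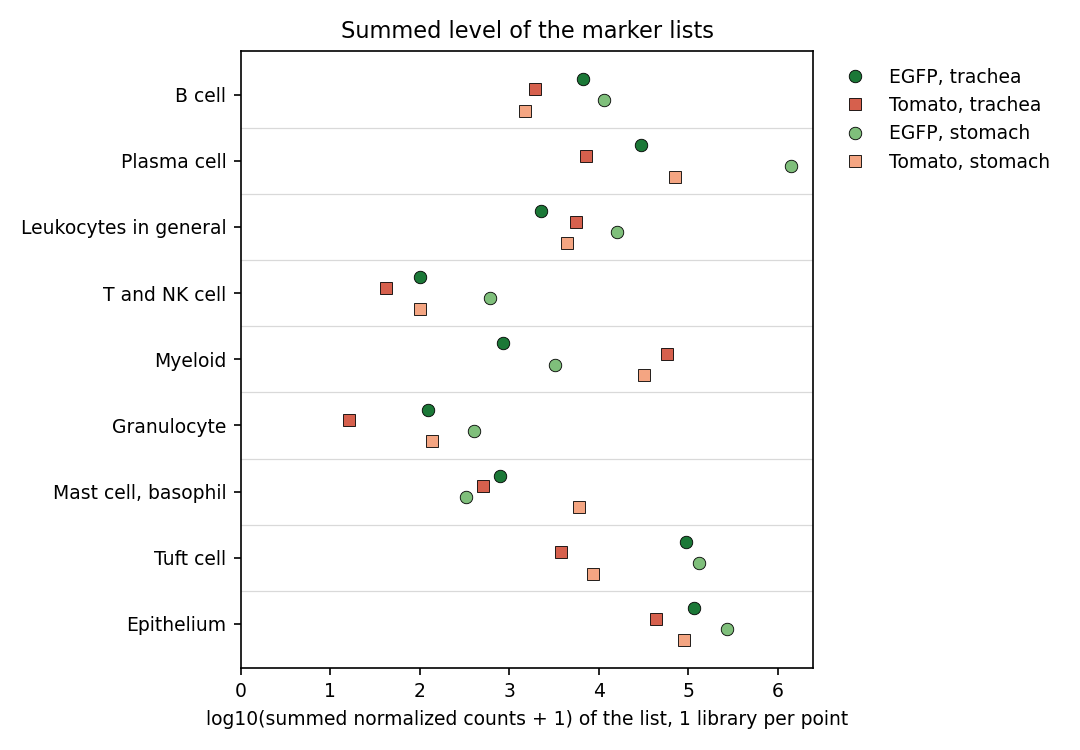
Summed level of each marker list as log10(summed normalized counts + 1), 1 point per library and no error bars, with symbols for sort and tissue as in the legend. The myeloid sum lies lower in EGFP cells (857 in the trachea, 3208 in the stomach) than in Tomato cells (58304 and 32223), whereas the plasma cell sum is highest in EGFP cells of the stomach at 1410055. Of the myeloid sum in Tomato cells of the trachea, 35491 is Lyz2.

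Enzymes and adaptors that act at the motifs of these receptors were mostly higher in EGFP cells. Of 14 such genes, 8 of 11 measured were called higher and 0 lower in the trachea, with a median log2 ratio of 4.27 beside -0.32 over all genes, and 9 of 12 were called higher and 2 lower in the stomach, with a median of 2.94 beside -0.15. Ptpn6, the phosphatase recruited by inhibitory motifs, was at 13609 in EGFP and 172 in Tomato cells of the trachea and at 21888 and 808 in those of the stomach. Vav1, an exchange factor for Rac, was at 6787 and 350 in the trachea and at 7021 and 668 in the stomach.

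The Src-family kinase gene Lyn had a different order in the tissues, at 800 and 1762 in EGFP and Tomato cells of the trachea and at 7240 and 905 in those of the stomach. Syk, the kinase that docks on phosphorylated CD79B, was at 0 and 2 in the trachea and at 30 and 40 in the stomach. Btk, the kinase further down that pathway, was at 0 in both libraries of the trachea and at 22 and 186 in the stomach. Syk and Btk were named after their values were seen.

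Tuft cell genes were higher in EGFP cells of both tissues with few exceptions. Of 11 tuft cell genes, 9 of 10 measured were called higher in the trachea, with a median log2 ratio of 4.62, and 11 of 11 in the stomach, with a median of 4.04. Dclk1 was at 6888 and 86 in EGFP and Tomato cells of the trachea and at 33844 and 2049 in those of the stomach, and the cation channel gene Trpm5 was at 21065 and 265 and at 14548 and 376. Avil, an actin-bundling protein gene, was at 19477 and 107 in the trachea and at 27919 and 2598 in the stomach. Alox5ap, which serves leukotriene synthesis, was at 7462 and 1098 and at 16819 and 919. The list summed to 94612 in EGFP and 3775 in Tomato cells of the trachea and to 131502 and 8666 in those of the stomach.

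Epithelial genes were present in both sorts of both tissues. Epcam, on which only the Tomato sort was gated, was at 5871 and 1450 in EGFP and Tomato cells of the trachea and at 4648 and 1751 in those of the stomach. Of 7 epithelial genes, 1 was called higher and 1 lower of 7 measured in the trachea, and 0 of 6 higher and 1 lower in the stomach. Krt18 was at 79635 and 20834 in the trachea and at 199950 and 51187 in the stomach, and Krt8 at 20374 and 5185 and at 56723 and 31049. The claudin gene Cldn7 was at 5979 and 4327 and at 2036 and 659. Of 25 genes that most cells use, a list added after the values were seen, 3 of 24 measured were called higher and 0 lower in the trachea, and 1 of 25 higher and 1 lower in the stomach.

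The genes whose pattern over the 4 libraries was most like that of each member were found by the root mean square distance of log2(value + 1), centred on each gene's mean. Nearest to Cd300lf was the phosphoinositide phosphatase gene Inpp5j, at a distance of 0.296 on the log2 scale, with 4674, 0, 3667 and 259 in EGFP and Tomato cells of the trachea and EGFP and Tomato cells of the stomach, followed by Ccdc109b at 0.398. Nearest to Siglecf was Ighj2, a joining segment of the heavy chain locus, at 0.080, with 0, 0, 3807 and 110, and then Ms4a8a at 0.229. Near Vsig2 lay Cfi, the gene of complement factor I, at 0.580, with 1319, 0, 10306 and 4877, and the nucleotidase gene Nt5c3 at 0.593.

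Ptprc had Rnf213 at a distance of 0.199, with 248, 1, 1106 and 717 in the same order of libraries, and Mad2l1bp at 0.281. Nearest to Cd24a were 2 genes at low levels, Mia at 0.280 with 23, 5, 201 and 16, and Pcyox1l at 0.281 with 29, 6, 438 and 44. Around Ms4a15 lay Gm43379, an unconfirmed transcript, at 0.584 and Wdr25 at 0.716, the latter with 1250, 0, 27 and 0. Cd79b had Gm43413, also an unconfirmed transcript, at 0.281 with 486, 0, 847 and 0, and Gm12446, annotated as antisense, at 0.528 with 517, 0, 521 and 0. With 4 libraries such likeness is a description of levels, and many genes listed at 0 in the same libraries share it.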

How the data were processed

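RNA-seq was performed on cDNA pre-amplified with the SMART-Seq v4 kit from sorted cells. According to the methods, the authors used Reaper for trimming, STAR 2.4.0a for alignment to GRCm38 and featureCounts 1.4.5-p1 for counting over exons. Reads that fell on more than 1 gene or more than 1 place in the genome were dropped. The deposited score is a normalized read count per gene that the authors scaled per library and rounded to whole numbers. The origin of the scaling factors and the strand setting of the counting are not given in the sources used here.

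The worth of 1 read per library was estimated from the gaps between values of 3 to 60, after a test on simulated data, and gave estimated reads for exact binomial intervals of 95%. Because rounded values do not give back every read, no count model was run. For 116 symbols on several lines, the line of largest sum entered. Ratios were log2 of values plus 1, and a call needed a 4-fold difference and 50 or more normalized counts in the higher of the libraries. The design has 1 library per group, so no test was made.

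Named were the 7 members, up to 4 genes of each of 16 lists with the highest value in an EGFP library among those at 50 or more in any library, the defining markers Cd79a, Ms4a1, Cd3e, Csf1r, Epx and Epcam, and the 2 nearest patterns of each member. Some genes that this rule names are not reported here. Genes named beyond this rule (Pax5, Mzb1, Syk, Btk, Tfrc, Ptprcap, Atp4a, Selplg) were chosen after their values were seen. The members and lists were chosen with earlier results of these data known, and the list of commonly used genes and the promoter motifs were added later. Lengths came from GENCODE M21, which held 48349 of 48709 gene IDs. Alternatives were other pseudocounts (10 and 0.1), scalings, minimums and fold rules. Python 3.11.15 was used with numpy 2.4.6, pandas 2.3.3, scipy 1.17.1 and matplotlib 3.10.9.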

Additional observations from a re-analysis of the deposited data

Results flagged for a closer look

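Of the leukocyte genes that the naming rule picked, 3 were called in opposite directions in the 2 tissues, a difference that was not tested because each sort of each tissue is 1 library. For Coro1a, log2((EGFP + 1)/(Tomato + 1)) was -9.12 in the trachea and 2.07 in the stomach, which differ by -11.20. For Ighm, the IgM constant gene, the values were -7.60 and 7.38, which differ by -14.98, with 2 and 580 normalized counts in EGFP and Tomato cells of the trachea and 40534 and 242 in those of the stomach. For Itgb2 the values were -11.16 and 3.71, which differ by -14.87. Coro1a and Itgb2 were listed at 0 in EGFP cells of the trachea, so the sizes of their tracheal values and of the differences are set by the pseudocount of 1, and only their direction is read. Selplg, a leukocyte gene outside the naming rule that was chosen after its values were seen, was called lower in the trachea (0 and 250 in EGFP and Tomato cells) and higher in the stomach (185 and 40) as well.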

How the results depend on the processing

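The 20 member ratios were recomputed to 80 values under other pseudocounts and scalings. Of these values 55 stayed within their counting interval and 25 moved out of it. None reversed, but none could. Only called ratios were checked for this, a pseudocount keeps the sign, and scaling shifted log2 ratios by at most 0.58. Ratios over a 0 do not change under scaling and their interval has no upper limit, so for them staying inside was fixed in advance. Members called higher in EGFP cells numbered 4 to 6 in the trachea. Setting all libraries to the same total shifted log2 ratios by 0.58 in the trachea, 0.18 in the stomach and 0.45 between the EGFP libraries. The share of higher calls went from 43.7% to 53.3% in the trachea and from 41.2% to 51.3% between the EGFP libraries. In the stomach it was 39.7%, and 52.3% with a minimum of 500.

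Counts over all genes moved by over 1.5 times as follows. With a minimum of 500, 1162 genes were called higher and 1459 lower in the trachea (2651 and 3411 at 50), 663 and 605 in the stomach (1639 and 2487 at 50), and 844 and 917 between the EGFP libraries (2048 and 2923 at 50). Leukocyte list genes called then numbered 5 higher and 13 lower in the trachea and 11 and 13 in the stomach. Without a minimum, 2737 genes were called higher and 4236 lower in the stomach and 5131 lower between the EGFP libraries. From 2-fold on, 2882 genes were called higher in the stomach and 3181 between the EGFP libraries, where 5 members were called lower, and from 8-fold on 1029 were called higher in the stomach. A smaller fold or minimum lets more genes pass by construction.

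No paired analysis was possible because each group is 1 library. No alternative stands in for biological replicates, and the EGFP library of the trachea has the fewest reads, so a 0 there allows the highest level.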
